A study of Homo sapiens with 6 samples.

Results

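The comparison described here is that of 22Rv1 cells kept for 6 weeks without drug (AM) with 22Rv1 cells harvested at the start (WT). 22Rv1 is an established cell line of prostate carcinoma epithelium. Its members were chosen by the labels of time and treatment and take 4 of the 6 samples of the series, 2 labelled as biological replicates in each group, and 14672 of the 29804 genes in the count table passed the filter on low counts. WT samples were untreated at week 0, AM samples were untreated at the end of week 6, and the other 2 samples (6WP) received 1 µg/ml of phleomycin, a radiomimetic DNA-breaking drug, daily on week days over the same 6 weeks. All groups were the same line with the genotype label WT, grown in RPMI with serum, penicillin and streptomycin, and no allele or transgene is named. The labels call AM cells age matched to the treated cells, so AM against WT asks what differs in the absence of drug between week 0 and week 6. Time in culture, harvest and any handling that went with it cannot be told apart, and no passage number, confluency at harvest or separate batch was used here.

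Cells of one line that are passaged for weeks can drift in expression without any drug, and cultures at the moment of harvest also differ in growth phase, nutrients and cell density. Among the gene groups used here, endoplasmic reticulum (ER) chaperones fold secreted and membrane proteins and are induced by the unfolded protein response. ATF4 is a transcription factor that drives amino acid import and synthesis when translation initiation is limited. Androgens maintain the luminal secretory genes of prostate epithelium, and HOX genes encode the homeodomain factors that hold positional identity.

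Total counts were between 21222201 and 23362469 in the WT libraries and AM replicate 1, and 35311945 in AM replicate 2. A floor of 3 counts corresponded to between 0.0850 and 0.141 CPM (counts normalised to the library total), counting error only. Replicates differed beyond counting error in each group, and the chi-square per degree of freedom was 4.80 for WT, 7.59 for AM and 52.1 for 6WP. The median gene had an SD between replicates of 0.0854 log2 units in WT and 0.0911 in AM, against 0.196 in 6WP cells, whose 2 libraries stood further apart than those of the other groups. All 6 libraries share 1 estimate of spread in the model, so this distance enters the tests of AM against WT as well.

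The cell type label was checked first. All 12 prostate luminal markers were detected in WT and AM cells. Of these, 4 fell and 2 rose. KRT8, a luminal keratin, had 250.1 and 274 CPM in the WT libraries and 140.1 and 165 CPM in the AM libraries (log2 fold change -0.78, adjusted p = 0.0132), and TMPRSS2 (-1.71) also fell. KRT19 (1.22) and the kallikrein gene KLK2 (0.81) rose. FOXA1 (-0.27), HOXB13 (-0.25), EPCAM (0.22), CDH1 (-0.23) and KLK3 (0.71, adjusted p = 0.115) did not pass, and KRT18 was at 0.06, with a sign that changed under other settings. In these bulk samples, fewer cells of a type and less RNA per cell cannot be told apart. Of 6 basal markers, KRT5 had 0 counts in every library and KRT14 and TP63 had at most 4, KRT15 had at most 20, and NGFR and CD44 were tested. CD44, a hyaluronan receptor, had 43.6 and 38.8 CPM in WT and 30.1 and 30.1 CPM in AM libraries, and NGFR had 21 and 13 counts in WT and 7 and 6 counts in AM libraries. Both were lower in both AM libraries and did not pass (adjusted p = 0.0567 and 0.053). Fibroblast markers summed to 30.0 and 27.7 CPM in WT and to 9.43 and 8.27 CPM in AM libraries over all 12 members. Of the 7 members tested, LUM and DCN fell and the others did not pass. COL1A2, POSTN, FAP and THY1 had at most 6 counts in any library. The endothelial genes CDH5 and KDR and the immune genes PTPRC, CD3E, CD3D and MS4A1 had 0 counts in all 6 libraries.

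Among 14672 genes tested, 2593 (17.7%) passed an adjusted p of 0.05 between AM and WT. In AM cells 1136 genes were higher (7.74%) and 1457 were lower (9.93%). These 2 shares are the background for the AM against WT counts of every list and family below. Falls were larger than rises. The median called rise was 0.61 log2 units (quartiles 0.49 and 0.82), and the median called fall was -1.07 (quartiles -1.70 and -0.73), while the median over all tested genes was -0.002. A rise beyond a log2 fold change of 1 was called for 170 genes (1.16%) and a fall beyond -1 for 788 (5.37%). The values of the 4 libraries did not overlap between the groups for any of the 2593 genes, but this also held for 73.8% of all genes tested. Upper quartile scaling gave 689 higher and 1832 lower genes, and scaling by library size alone gave 734 higher and 1664 lower, so the split between directions depends on the scaling.

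The calls also depended on having both replicates, in the lists below as well as over all genes. Leaving out 1 of the 4 libraries left between 46 and 123 genes called, 46 without WT replicate 2 and 123 without AM replicate 1, and a fit of only the 4 WT and AM libraries called 6635. Of the 135 called genes that the naming rule selected, 23 kept their call in every alternative run: SMOC1, MT1M, MT1G, EPHX1, GSDMD, EPHB3, LUM, GFRA1, CTGF, NCMAP, EDIL3, TNFRSF19, TFPI, BTN3A1, BTN3A2, RCAN3, ELF5, RP11-669N7.2, CLDN11, PROS1, VIM, LAMB1 and RELN. Every other called gene selected by that rule lost its call without WT replicate 2.

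**Figure D1:**
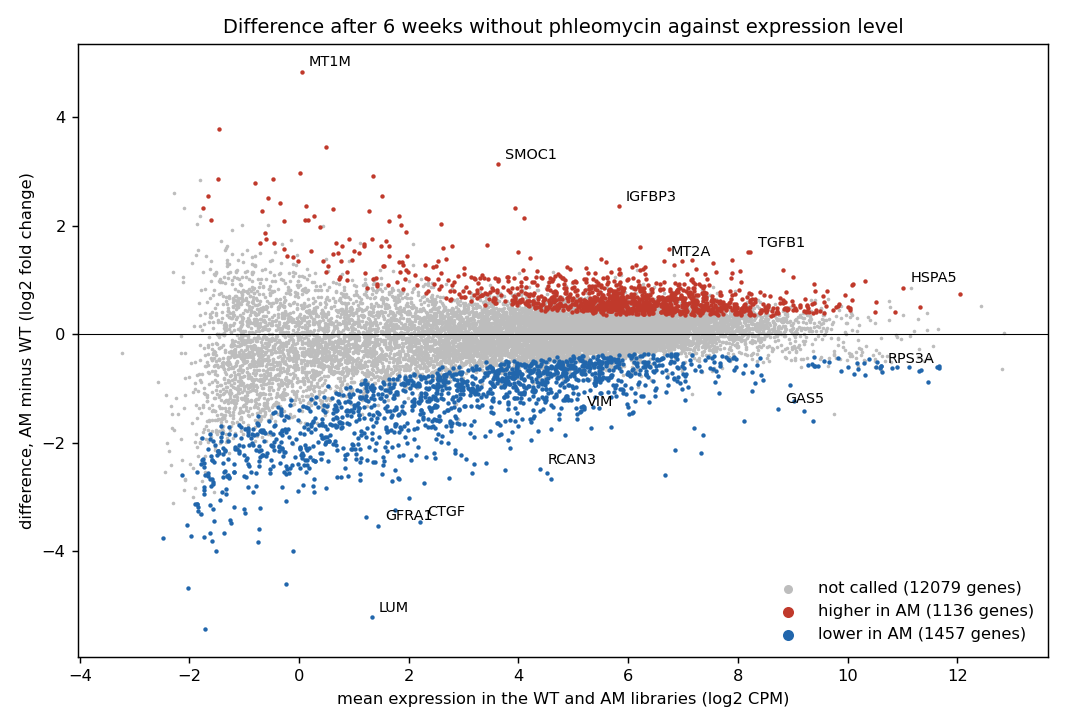
Each point is 1 of the 14672 genes tested, with its mean expression in the WT and AM libraries (log2 CPM) on the horizontal axis and the AM minus WT log2 fold change on the vertical axis; red genes were higher and blue genes lower at an adjusted p under 0.05. The falls reach further from 0 than the rises and gather among genes of low and middle expression, while rises among highly expressed genes such as HSPA5 are small in size.

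Among genes averaging at least 1 log2 CPM, the largest rise was in SMOC1, a secreted calcium-binding matrix protein that antagonises BMP signalling, on chr14:69854131-70032366 of GRCh38. It had 3.7 and 4.59 CPM in the WT libraries, 39.9 and 33.2 CPM in the AM libraries and 4.23 and 2.22 CPM in the 6WP libraries. Both AM libraries were several-fold above the other 4, which overlapped each other. AM differed from WT by 3.14 log2 units (SE 0.28, adjusted p = 0.00178), and 6WP cells were below AM cells (6WP minus AM -3.50 log2, adjusted p = 0.00164).

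IGFBP3 binds insulin-like growth factors and had 25.7 and 24.2 CPM in WT and 126 and 129.9 CPM in AM libraries, and the 6WP libraries lay between them at 78.7 and 38.5 CPM (log2 fold change 2.36, SE 0.29, adjusted p = 0.00405). TNFSF10, the death receptor ligand TRAIL, had 0.625 and 1.19 CPM in WT and 7.4 and 6.36 CPM in AM libraries (log2 fold change 2.91, SE 0.61, adjusted p = 0.0183). CGA encodes the alpha subunit shared by the glycoprotein hormones and went from 1.25 and 0.918 CPM to 7.01 and 3.62 CPM (log2 fold change 2.27, SE 0.40, adjusted p = 0.0107). EDN2, an endothelin peptide, rose with a log2 fold change of 1.89, the tolloid-like metalloprotease TLL2 with 2.19, and the hyaluronidase HYAL1 with 2.09. CNTD2, a cyclin-domain gene, rose with 2.00. The rule that named these genes required groups that do not overlap. TGFB1, a secreted growth factor named here after its values were seen, had 158 and 198 CPM in WT and 468 and 549.7 CPM in AM libraries (log2 fold change 1.51, SE 0.22, adjusted p = 0.00692).

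Other rises were named for their small p-values. EPHX1, the microsomal epoxide hydrolase, had 79.1 and 78 CPM in the WT libraries and 202 and 199.9 CPM in the AM libraries, so the replicates differed far less than the groups (log2 fold change 1.35, SE 0.10, adjusted p = 0.00157). GSDMD, the pore-forming effector of pyroptosis, went from 49.5 and 53.9 CPM to 116 and 129 CPM (1.25 log2). EPHB3, an ephrin receptor tyrosine kinase, went from 157 and 186 CPM to 465 and 518 CPM (1.52 log2), and SEZ6 from 11.3 and 11.4 CPM to 27.5 and 32.9 CPM (1.41 log2). For GSDMD, EPHB3 and SEZ6, the 6WP cells were also above WT cells (adjusted p = 0.00625, 0.00912 and 0.0122), and 6WP against AM did not pass (adjusted p = 0.168, 0.0856 and 0.114).

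**Figure D2:**
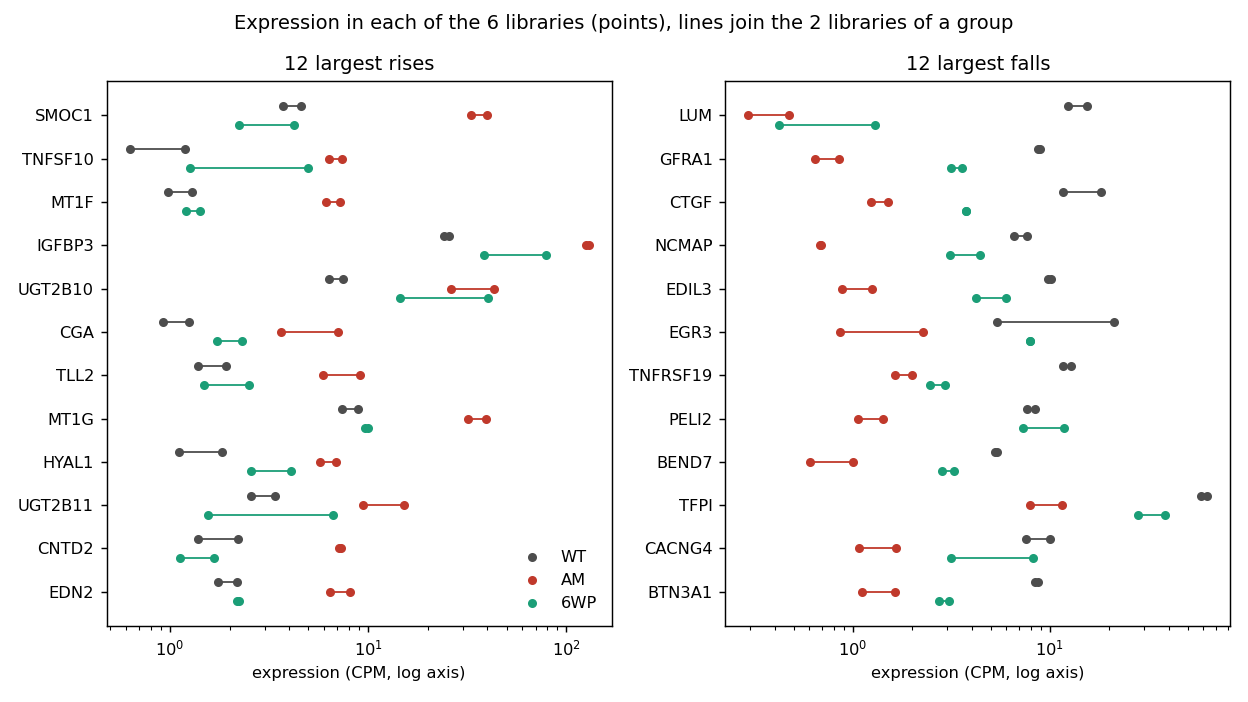
Expression in CPM (log axis) of the 12 genes with the largest called rises and the 12 with the largest called falls among genes that average at least 1 log2 CPM and whose WT and AM libraries do not overlap, with 1 point per library and a line between the 2 libraries of a group. The 6WP points lie nearer to WT for SMOC1 and PELI2 and nearer to AM for LUM and TNFRSF19.

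By the same rule the largest fall was in LUM, which encodes lumican, a keratan sulfate proteoglycan of collagenous matrix, on chr12:91102629-91111494. It had 15.4 and 12.4 CPM in the WT libraries (345 and 270 counts), 0.473 and 0.294 CPM in the AM libraries (11 and 10 counts) and 1.3 and 0.423 CPM in the 6WP libraries. All 4 libraries harvested at week 6 were below both WT libraries. AM differed from WT by -5.21 log2 units (SE 0.46, adjusted p = 0.00178), and 6WP against AM did not pass (adjusted p = 0.161).

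GFRA1, the GDNF co-receptor, had 8.93 and 8.72 CPM in WT and 0.646 and 0.854 CPM in AM libraries (log2 fold change -3.53, SE 0.25, adjusted p = 0.00157). CTGF (now CCN2), a matricellular protein and YAP target, went from 11.7 and 18.2 CPM to 1.51 and 1.24 CPM (log2 fold change -3.46, SE 0.28, adjusted p = 0.00157). EDIL3, an integrin-binding matrix protein, went from 9.73 and 10.2 CPM to 1.25 and 0.883 CPM (log2 fold change -3.24, SE 0.28, adjusted p = 0.00157). In these 3 genes the 6WP libraries lay between the other groups and were above AM cells (adjusted p = 0.00318, 0.0129 and 0.00344). TNFRSF19, a TNF receptor family member, had 12.8 and 11.7 CPM in WT, 1.64 and 2.0 CPM in AM and 2.46 and 2.92 CPM in 6WP libraries, so both cultures of week 6 were low (log2 fold change -2.74, SE 0.22, adjusted p = 0.00157). NCMAP (-3.37), the calcium channel subunit CACNG4 (-2.66), the ubiquitin ligase PELI2 (-2.71) and BEND7 (-2.69) also fell. A pair of coagulation inhibitors fell together. TFPI, the tissue factor pathway inhibitor, had 63 and 58.7 CPM in WT and 11.4 and 7.89 CPM in AM libraries (-2.66 log2), and PROS1, protein S, had 39 and 34.3 CPM in WT and 10 and 8.89 CPM in AM libraries (-1.96 log2).

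The fall with the smallest p-value was in RCAN3, a regulator of calcineurin, at 45.6 and 53.5 CPM in WT and 8.61 and 9.04 CPM in AM libraries (log2 fold change -2.49, SE 0.17, adjusted p = 0.00157). ELF5, an ETS factor of epithelial differentiation, went from 21.1 and 21.6 CPM to 3.23 and 4.0 CPM (log2 fold change -2.55, SE 0.18, adjusted p = 0.00157), and the 6WP libraries held 6.72 and 6.13 CPM. CLDN11, a tight junction claudin, fell by 2.10 on the log2 scale (adjusted p = 0.00157), and RP11-669N7.2, a clone-based symbol with no match in the annotation, by 2.37. VIM, the intermediate filament vimentin, had 56.8 and 57.3 CPM in WT, 20.3 and 22 CPM in AM and 88.5 and 88 CPM in 6WP libraries. AM cells were the lowest group and 6WP cells the highest, without overlap (log2 fold change -1.43, SE 0.11, adjusted p = 0.00157; 6WP against AM log2 fold change 2.06, adjusted p = 0.000199). Exons of VIM, CTGF, GFRA1, RCAN3, EDIL3, BEND7, TFPI, CACNG4 and PELI2 overlap a gene on the opposite strand. The strand setting of the counting is not given in the sources used here, and VIM-AS1, antisense to VIM, was also lower in AM cells (log2 fold change -1.35, adjusted p = 0.0204).

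ER chaperones and folding enzymes rose almost as a whole. Of the 26 genes of the list, 23 were higher in AM cells (88.5% against 7.74% of all tested genes), 1 was lower and 2 did not pass, with a median log2 fold change of 0.74 against -0.002 for all genes. HSPA5, the abundant ER chaperone BiP, had 1545 and 1533 CPM in WT and 2704 and 2873 CPM in AM libraries (log2 fold change 0.86, SE 0.12, adjusted p = 0.00603). DNAJB11, its co-chaperone, went from 122 and 116 CPM to 303 and 288 CPM (log2 fold change 1.31, SE 0.13, adjusted p = 0.00219). PDIA4, a protein disulfide isomerase, had 912 and 912 CPM in WT and 1732 and 1863 CPM in AM libraries (0.98 log2), and MANF, a secreted ER stress factor, had 353 and 359 CPM in WT and 726 and 756 CPM in AM libraries (1.06 log2). HSP90B1 (0.75), HYOU1 (0.93), SDF2L1 (1.20), CRELD2 (1.16), the degradation factors HERPUD1 (0.96), DERL3 (1.04) and SEL1L (0.59), and XBP1, a transcription factor of this response (0.51), rose as well. The AM libraries were close to each other, with list medians of 0.74 and 0.75 above the mean of WT. The exception was ERO1LB, an ER oxidoreductase, which had 37.8 and 37.9 CPM in WT and 21.1 and 19.8 CPM in AM libraries (log2 fold change -0.89, SE 0.16, adjusted p = 0.0118). DERL1 (0.35, adjusted p = 0.0523) and CREB3L2 (0.50, adjusted p = 0.0698) did not pass. Without WT replicate 2 none of the 26 kept its call, while their median was 0.71, and with another of the 4 libraries left out at most 3 did.

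In 6WP cells the list lay on the other side of WT, with a median log2 fold change against WT of -0.48. Against AM cells, 25 of the 26 members were lower in 6WP cells (9.68% of all tested genes were lower and 11.7% higher in that comparison). Against WT cells, 8 members were lower in 6WP and 0 higher (1.37% and 1.63% of all tested genes). HSPA5 had 444 and 512 CPM and PDIA4 338 and 319 CPM in the 6WP libraries, below every WT and AM library. The 6WP against AM comparison shares its AM libraries with AM against WT, so the signs of these differences are not independent. This holds for every list and family below, and their 6WP counts stand against the same shares over all tested genes.

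The promoters of this list carried a described feature. The ER stress element, read as CCAAT and CCACG with 9 bases between them on either strand, stood in the window from 250 bases before to 50 after the start site of 7 of the 23 tested members with a promoter in the RefSeq table (30.4%). It stood in 14 of the 11085 promoters of all tested genes (0.126%) and in 22 of all 27305 promoters (0.0806%). Of the 14 tested genes whose window held it, 9 were higher in AM cells and 1 was lower, and the 7 list members are among these 14. The 4 windows printed here are those of the abundant HSPA5 and HSP90B1, of CRELD2, which had the largest rise among the 7, and of ERO1LB, the holder that fell. They are RefSeq sequences of GRCh38.p14, 5′ to 3′ on the strand of the gene, with the matches to the element or its reverse complement in capitals. Their positions are chr9:125241294-125241593 (minus strand), chr12:103930160-103930459 (plus), chr22:49918384-49918683 (plus) and chr1:236281909-236282208 (minus).
HSPA5: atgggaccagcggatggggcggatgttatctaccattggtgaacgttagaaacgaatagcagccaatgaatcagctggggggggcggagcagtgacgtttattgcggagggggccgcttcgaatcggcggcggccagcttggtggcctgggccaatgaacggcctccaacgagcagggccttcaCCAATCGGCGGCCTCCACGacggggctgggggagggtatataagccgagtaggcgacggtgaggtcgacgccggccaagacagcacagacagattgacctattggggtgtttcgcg
HSP90B1: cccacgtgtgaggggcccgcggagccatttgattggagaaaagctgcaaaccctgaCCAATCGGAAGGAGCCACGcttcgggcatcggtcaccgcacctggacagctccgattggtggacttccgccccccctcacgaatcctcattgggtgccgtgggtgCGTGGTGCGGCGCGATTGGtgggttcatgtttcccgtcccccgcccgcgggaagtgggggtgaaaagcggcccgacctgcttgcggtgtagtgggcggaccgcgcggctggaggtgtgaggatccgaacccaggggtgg
CRELD2: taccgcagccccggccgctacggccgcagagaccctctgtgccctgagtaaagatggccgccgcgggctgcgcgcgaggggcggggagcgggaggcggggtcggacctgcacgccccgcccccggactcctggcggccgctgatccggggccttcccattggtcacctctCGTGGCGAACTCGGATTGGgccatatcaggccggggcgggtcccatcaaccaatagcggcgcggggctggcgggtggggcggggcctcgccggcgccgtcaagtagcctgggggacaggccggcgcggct
ERO1LB: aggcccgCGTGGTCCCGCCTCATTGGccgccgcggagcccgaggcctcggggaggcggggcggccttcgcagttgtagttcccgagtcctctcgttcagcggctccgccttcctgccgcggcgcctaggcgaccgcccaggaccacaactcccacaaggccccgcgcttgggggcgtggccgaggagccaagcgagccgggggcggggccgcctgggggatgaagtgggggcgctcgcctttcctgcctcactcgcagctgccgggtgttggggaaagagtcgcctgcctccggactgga
HSP90B1 held 2 matches and the others 1 each. In ERO1LB, as in the others, the window held the letters searched, and its transcript was lower in both AM libraries than in both WT libraries.

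Metallothioneins, small cysteine-rich proteins that bind zinc and copper, had the highest median of any list. Of 11 genes, 9 passed the filter and 7 of these were higher in AM cells (77.8% against 7.74% of all tested genes). The median log2 fold change over the 9 was 2.14. MT2A, the best expressed, had 58.4 and 67.1 CPM in WT, 155 and 164 CPM in AM and 65.5 and 46.7 CPM in 6WP libraries. The AM libraries were above all others and the WT and 6WP libraries overlapped (log2 fold change 1.35, SE 0.17, adjusted p = 0.00424). MT1G went from 8.88 and 7.35 CPM to 39.5 and 32 CPM (log2 fold change 2.14, SE 0.17, adjusted p = 0.00157), and MT1F from 0.982 and 1.29 CPM to 7.19 and 6.15 CPM (2.55 log2). MT1M had 5 and 2 counts in the WT libraries and 114 and 150 counts in the AM libraries, and the 6WP libraries held 2 and 3 counts. Its fitted log2 fold change was 4.84 (adjusted p = 0.00157), which rests on 7 counts in WT cells. MT1E (0.73), MT1H (2.55) and MT1L (2.79) also rose, the last 2 from at most 6 counts in a WT library. MT1X, at 25.2 and 22.1 CPM in WT and 20.9 and 26.8 CPM in AM libraries, overlapped between the groups (log2 fold change 0.02, adjusted p = 0.958), and MT3 did not pass. All 7 were lower in 6WP than in AM cells. These genes are near-identical neighbours on chromosome 16, and reads may be split between them.

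A metal response element, searched as TGCACNC or TGCGCNC on either strand and added after the metallothionein values were seen, was in all 3 of the tested members with a promoter in the table (MT1H, MT1X and MT2A). The same letters were in 39.5% of the promoters of all tested genes and 39.1% of those higher in AM cells. MT2A, which rose, and MT1X, whose AM values overlapped WT, are printed with all matches in capitals, from chr16:56608334-56608633 and chr16:56682220-56682519 (both plus strand).
MT2A: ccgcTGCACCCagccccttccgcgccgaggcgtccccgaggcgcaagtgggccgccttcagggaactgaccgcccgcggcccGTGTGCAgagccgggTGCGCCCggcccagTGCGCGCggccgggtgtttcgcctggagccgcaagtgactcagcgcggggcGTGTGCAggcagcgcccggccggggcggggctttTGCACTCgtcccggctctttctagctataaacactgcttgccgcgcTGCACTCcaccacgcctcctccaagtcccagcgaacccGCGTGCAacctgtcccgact
MT1X: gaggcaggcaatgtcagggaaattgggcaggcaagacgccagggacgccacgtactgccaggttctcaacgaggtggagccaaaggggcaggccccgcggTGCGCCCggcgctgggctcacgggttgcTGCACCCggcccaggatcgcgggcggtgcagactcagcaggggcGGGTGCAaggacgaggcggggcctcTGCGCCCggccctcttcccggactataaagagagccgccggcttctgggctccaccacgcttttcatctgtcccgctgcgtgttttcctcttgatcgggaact
The first window held 8 matches, none of them overlapping another, and the second 4.

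**Figure D3:**
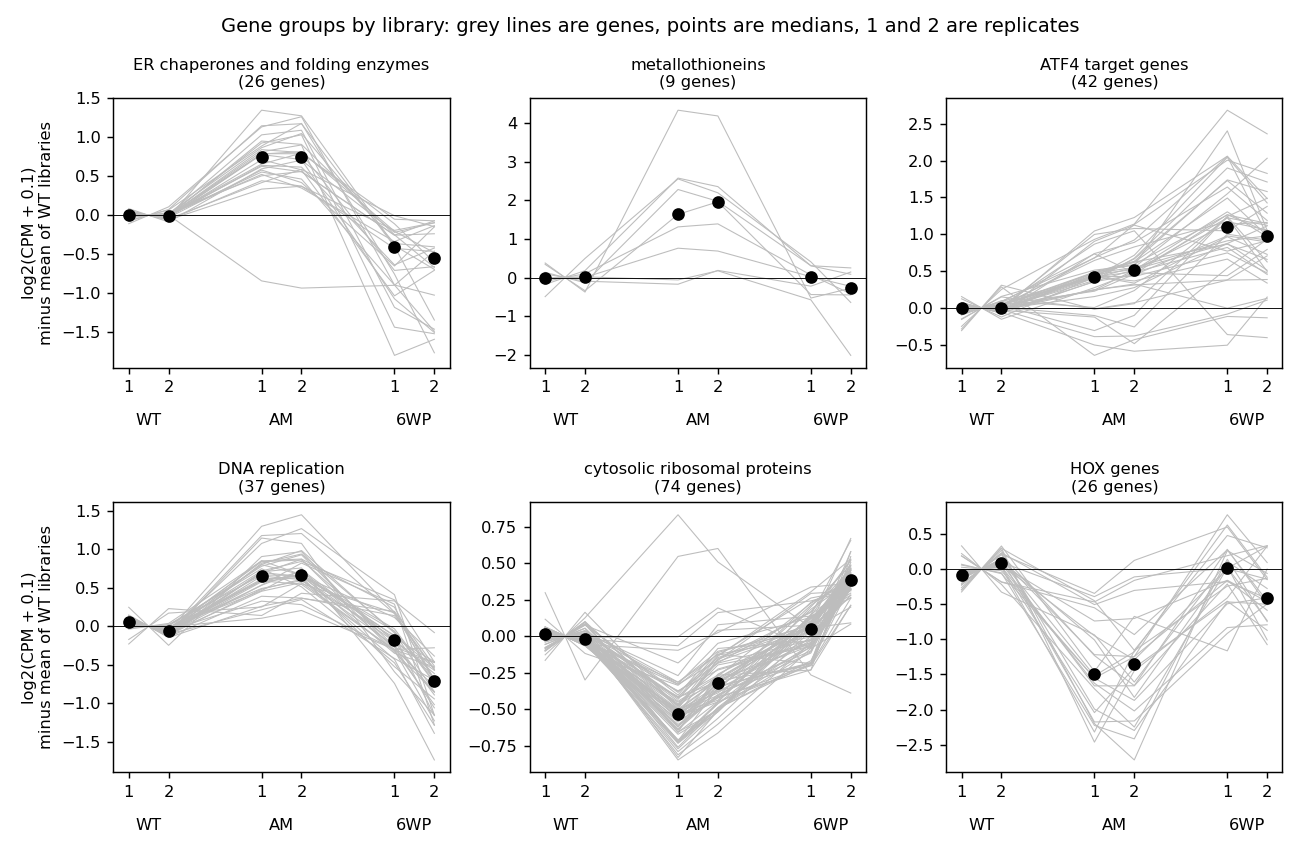
For 6 gene groups, each grey line is 1 gene across the 6 libraries, as log2(CPM + 0.1) minus its mean in the WT libraries, and black points are group medians in each library. In both AM libraries the medians are above 0 for ER chaperones, metallothioneins, ATF4 targets and DNA replication genes and below 0 for ribosomal protein and HOX genes, and in the 6WP libraries those of ER chaperones and DNA replication genes lie below 0.

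Targets of ATF4 were higher in AM cells in a share of the list. Of 42 tested members, 19 were higher (45.2%) and 0 lower, with a median of 0.47. DDIT3, the stress transcription factor CHOP, had 35.1 and 33.8 CPM in WT and 71.2 and 80.8 CPM in AM libraries (log2 fold change 1.14, SE 0.19, adjusted p = 0.00875), and CHAC1, a glutathione-degrading enzyme, had 5.71 and 8.13 CPM in WT and 13.1 and 15.1 CPM in AM libraries (log2 fold change 1.03, SE 0.21, adjusted p = 0.0158). Amino acid transporters were among the members that rose, namely SLC1A4 (1.02), SLC43A1 (1.04), SLC7A5 (0.74), SLC3A2 (0.54) and SLC1A5 (0.49). SLC7A11, the cystine transporter, was at -0.29 and did not pass (adjusted p = 0.242). Serine synthesis was represented by PSAT1, which rose (0.51), and by PHGDH and PSPH, which did not pass (0.39 and 0.38).

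ASNS, asparagine synthetase, had 344 and 290.1 CPM in WT, 422 and 444 CPM in AM and 738 and 687 CPM in 6WP libraries. The groups did not overlap and rose in that order (log2 fold change 0.45, SE 0.12, adjusted p = 0.0382), and 6WP cells were above AM cells as well (log2 fold change 0.72, adjusted p = 0.00815). The call of AM against WT was lost under upper quartile scaling, under library size scaling, over genes of at least 1 log2 CPM alone (an alternative chosen after seeing the data), and without any 1 of the 4 libraries. OGDHL, which encodes an oxoglutarate dehydrogenase-like protein of mitochondria, had 7.36 and 9.51 CPM in WT and 7.7 and 7.89 CPM in AM libraries. These overlapped (log2 fold change -0.11, adjusted p = 0.79), while the 6WP libraries were above both at 12.5 and 21.4 CPM (6WP against AM log2 fold change 1.12, adjusted p = 0.0223). For the ATF4 list as a whole, 28 of 42 members were higher and 1, HERPUD1, was lower in 6WP than in AM cells. The ATF4 element, the letters TGATGNAA on either strand, was in 7 of 33 promoters of the list (21.2%) and in 1.65% of those of all tested genes. Among the 7 genes, CHAC1, SLC3A2, HERPUD1 and ASNS rose in AM cells, and ATF3, MTHFD1L and SLC7A1 did not pass. A sterol element, TCACNCCAC, was in 1 of 19 promoters of cholesterol genes and in 1.08% of those tested.

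Cytosolic aminoacyl-tRNA synthetases, which charge tRNAs for translation, were higher in 10 of 20 cases (50.0%) and lower in 1. WARS, for tryptophan, had 102 and 99.5 CPM in WT and 204 and 204 CPM in AM libraries (log2 fold change 1.02, SE 0.14, adjusted p = 0.00622), and TARS (0.57), NARS (0.62) and HARS (0.56) rose by less. QARS, for glutamine, went the other way, from 269.8 and 258 CPM to 194 and 190.5 CPM (log2 fold change -0.46, adjusted p = 0.0303). In 6WP against AM cells 3 members were higher and 5 lower, where 11.7% and 9.68% of all tested genes were. The 3 higher members were near the share over all genes.

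Of 37 DNA replication genes 16 rose (43.2%), 0 fell and 21 did not pass, with a median of 0.64, and all 37 values were above 0. With any 1 library of WT or AM left out, 0 were called. TYMS, thymidylate synthase, had 154 and 141 CPM in WT and 363 and 403 CPM in AM libraries (log2 fold change 1.38, SE 0.25, adjusted p = 0.0118). The licensing factor CDC6 went from 98.3 and 84 CPM to 202 and 192 CPM (log2 fold change 1.11, SE 0.18, adjusted p = 0.00876), and POLA2, of the polymerase alpha-primase complex, from 52.4 and 46.1 CPM to 112 and 114 CPM (log2 fold change 1.19, SE 0.21, adjusted p = 0.0114). The helicase subunits MCM2, MCM3, MCM4, MCM5 and MCM6 rose by between 0.51 and 0.67, PCNA by 0.78 and UHRF1 by 0.85 log2 units. RFC3, PRIM1, POLE, CDT1 and TK1 were among those that did not pass. In 6WP cells 32 of the 37 were lower than in AM cells and 1 was lower than in WT cells.

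Mitosis genes were positive too, in 34 of 34, but only MKI67 was called (and none under upper quartile scaling), from 43.9 and 45.4 CPM in WT to 83.8 and 97.9 CPM in AM libraries (log2 fold change 1.03, SE 0.28, adjusted p = 0.0418). CDK1 (0.50, adjusted p = 0.329), PLK1 (0.51, adjusted p = 0.376) and TOP2A (0.24, adjusted p = 0.603) did not pass. The median over the 34 was 0.45. WT replicate 2 was below WT replicate 1 by a median of 0.16 in this list and 0.12 in the replication list. With only the 4 WT and AM libraries in the fit, 31 mitosis and 35 replication genes were called. Targets of p53, by contrast, held 0 rises and 4 falls among 26 (TP53INP1 -0.69, ZMAT3 -0.57, BTG2 -0.56 and CCNG1 -0.42), a share of 15.4% lower against 9.93% of all genes.

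Proteasome and mitochondrial import genes were looked at after their values had been seen, and their counts are a description. For all families of this paragraph, the shares over all tested genes were 7.74% higher and 9.93% lower. In the highest of 5 equal bins of tested genes by expression, 16% were higher and 4.85% lower (median 0.16). Of 34 tested proteasome subunits, 25 were higher in AM cells and 0 lower, with a median of 0.49. PSMA6, a core subunit, had 173 and 155 CPM in WT and 322 and 347 CPM in AM libraries (log2 fold change 1.03, SE 0.12, adjusted p = 0.00366), and PSMD2, of the regulatory particle, 369 and 351 CPM in WT and 617 and 615 CPM in AM libraries (log2 fold change 0.78, SE 0.13, adjusted p = 0.00944). With upper quartile scaling 14 of them were called. Of 22 mitochondrial import translocases, 12 were higher (TOMM40 0.88, TIMM21 0.65) and 0 lower, and with upper quartile scaling 6 were called. Of 16 tubulins, also looked at after seeing values, 3 were higher and 2 lower, against 7.74% and 9.93% of all tested genes. The falls were near the share over all genes. Nuclear subunits of the respiratory chain were higher in 7 of 45 cases (15.6%) with a median of 0.29, NDUFB4 with 0.55 and ATP5A1 with 0.41. Mitochondrially encoded transcripts were not analysed here.

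**Figure D4:**
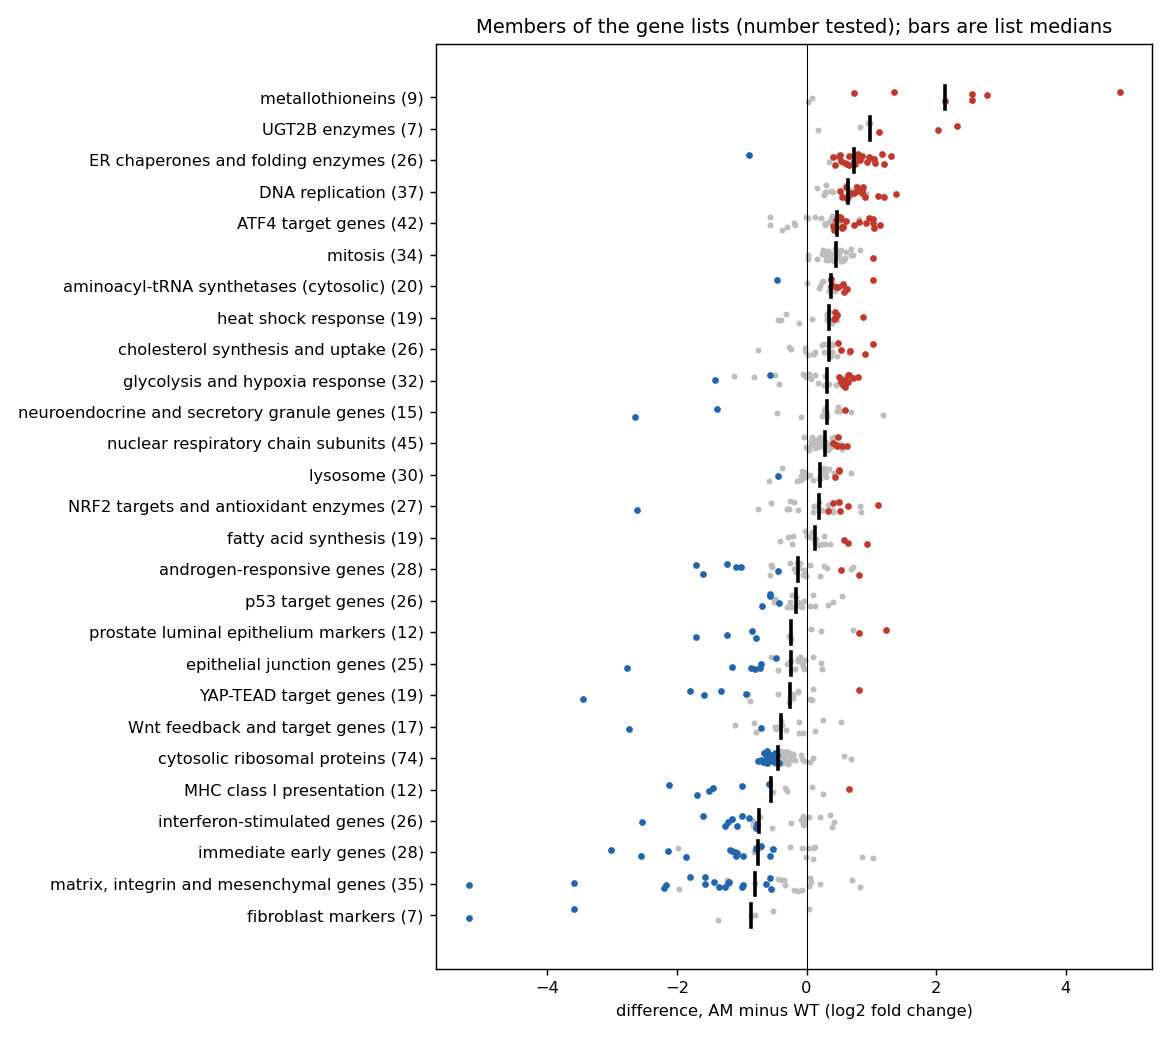
AM minus WT log2 fold change of every tested member of the lists with at least 7 tested genes (number in brackets); red members were called higher, blue members called lower, grey members not called, and black bars are medians. Metallothioneins have the highest median (2.14) and fibroblast markers the lowest (-0.86), and ER chaperones gather to the right of 0 except for ERO1LB at -0.89.

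In glycolysis and the hypoxia response 10 of 32 were higher (31.2%) and 2 lower (6.25%), against 7.74% and 9.93% of all tested genes. HK1 (0.64), PGK1 (0.59), ENO1 (0.60) and BNIP3 (0.71) rose. SLC2A1, the glucose transporter GLUT1, fell, from 965 and 968 CPM in WT to 314 and 408 CPM in AM libraries (log2 fold change -1.42, SE 0.23, adjusted p = 0.00841), and so did MXI1 (-0.56). Of 26 cholesterol genes 5 were higher (19.2%), NSDHL (0.66) and ACAT2 (1.02) among them, and 0 lower. Of 19 fatty acid genes, FADS2 (0.93), ACSL3 (0.64) and SREBF1 (0.58) rose (15.8%) and 0 fell. In the highest of 5 equal bins of tested genes by expression 16% were higher, near the shares of the cholesterol and fatty acid lists. In 6WP against AM cells, 21 cholesterol and 10 fatty acid genes were lower and 0 higher, against 9.68% and 11.7% of all tested genes. FADS2 shares exonic sequence with FEN1 on the same strand, and the ACAT2 exons overlap TCP1 on the opposite strand.

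Antioxidant enzymes and chaperones of the cytosol gave a mixed picture. Of 27 NRF2 targets and antioxidant enzymes 6 were higher (22.2%), GPX1 with 111 and 118 CPM in WT and 229.5 and 263 CPM in AM libraries (log2 fold change 1.10, adjusted p = 0.0164), PRDX1 (0.64) and TALDO1 (0.50) among them. GSTA1, a glutathione transferase, fell from 32 and 16 counts in WT to 2 and 8 counts in AM libraries. In the heat shock response 5 of 19 were higher (26.3%), HSPB8 (0.87), STIP1 (0.45), FKBP4 (0.44) and BAG3 (0.42) among them. Of 30 lysosomal genes 3 were higher (10%), ATP6V0D1, ATP6V1H and NEU1, and GUSB was lower (3.33%). For the lists of this paragraph, the shares over all tested genes were 7.74% higher and 9.93% lower, and the lysosomal rises were close to the first.

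Of 28 tested androgen-responsive genes, 6 were lower (21.4%, against 9.93% of all tested genes) and 20 did not pass, with a median of -0.13. The 2 higher members (7.14%) were near the share over all genes (7.74%). SLC45A3, the membrane protein prostein, had 471 and 503 CPM in WT, 129 and 192 CPM in AM and 311 and 562 CPM in 6WP libraries (log2 fold change -1.60, SE 0.28, adjusted p = 0.0109). TMPRSS2, the luminal transmembrane protease, had 91 and 95.7 CPM in WT, 24.5 and 32.3 CPM in AM and 42 and 116 CPM in 6WP libraries (log2 fold change -1.71, SE 0.40, adjusted p = 0.0256), and its exons overlap MX1 on the opposite strand. In both genes the AM libraries were below all other libraries, and the 6WP libraries were far apart. The metalloreductase family members STEAP1 (-1.01) and STEAP2 (-1.09) also fell. KLK2 went the other way, from 39.5 and 38 CPM to 61.8 and 74.1 CPM (log2 fold change 0.81, SE 0.12, adjusted p = 0.00759), with NCAPD3 (0.54). KLK3, prostate-specific antigen, had 50 and 55.1 CPM in WT and 65 and 107 CPM in AM libraries, which did not overlap but did not pass (log2 fold change 0.71, adjusted p = 0.115). FKBP5 (0.05) and NDRG1 (-0.01) overlapped between the groups and did not pass.

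UGT2B enzymes, which glucuronidate androgens and other steroids, had positive values in all 7 genes, and 3 were called (42.9%). UGT2B15 had 52.4 and 55.1 CPM in WT, 132 and 101 CPM in AM and 123 and 92.5 CPM in 6WP libraries (log2 fold change 1.12, SE 0.18, adjusted p = 0.00803). Both groups of week 6 were above WT, and 6WP against AM did not pass (log2 fold change -0.11, adjusted p = 0.669). UGT2B10 had 7.45 and 6.38 CPM in WT and 43.2 and 26.1 CPM in AM libraries (log2 fold change 2.32, SE 0.46, adjusted p = 0.0155), and UGT2B11 3.39 and 2.57 CPM in WT and 15.2 and 9.45 CPM in AM libraries (log2 fold change 2.04, SE 0.57, adjusted p = 0.0434). The call of UGT2B11 was lost under upper quartile scaling, library size scaling, the DESeq2 Wald test and the limit to genes of at least 1 log2 CPM, and without any 1 of the 4 libraries. These genes are close paralogs, so their reads may be split.

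Matrix, integrin and mesenchymal genes were lower in part. Of 35 tested members 17 were lower (48.6% against 9.93% of all genes) and 0 higher, with a median of -0.79. LAMB1, the laminin beta-1 chain, had 56.7 and 58.5 CPM in WT, 18.5 and 20.5 CPM in AM and 45.1 and 53.4 CPM in 6WP libraries (log2 fold change -1.56, SE 0.13, adjusted p = 0.00157). Laminins LAMA5 (-1.26), LAMB3 (-1.57) and LAMC1 (-0.56) also fell. Among integrins, ITGA5, of the fibronectin receptor, had 25.9 and 28.6 CPM in WT and 7.62 and 8.09 CPM in AM libraries (log2 fold change -1.79, SE 0.18, adjusted p = 0.00258), and ITGA1 (-1.21), ITGA2 (-1.35), ITGA3 (-0.54) and ITGA6 (-0.62) fell with it. ITGB1, the shared beta subunit, had 212 and 192 CPM in WT and 214 and 209.9 CPM in AM libraries and the groups overlapped (log2 fold change 0.07, adjusted p = 0.681). DCN, a proteoglycan, fell from 39 and 37 counts to 2 and 6 counts. FN1, fibronectin, was at 0.83 (adjusted p = 0.0775), CDH2 at 0.05 and TWIST1 at 0.21, none past the threshold. In 6WP against AM cells 13 of the 35 were higher and 0 lower. Collagens, a family looked at after seeing the values, held 9 falls and 0 rises among 23, and COL4A5 had 59.9 and 55.2 CPM in WT and 22.6 and 20.4 CPM in AM libraries (log2 fold change -1.42, SE 0.13, adjusted p = 0.0018).

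Of 25 epithelial junction genes 7 were lower (28.0%, against 9.93% of all tested genes), OCLN (-0.80), DSG2 (-0.85) and CLDN1 among them, and 0 higher. CLDN1 had 53 and 55 counts in WT and 10 and 10 counts in AM libraries. Of 19 YAP-TEAD targets 5 were lower (26.3%, against 9.93% of all tested genes), CTGF, MYOF (-1.80), NT5E (-1.59) and AMOTL2 (-1.32) among them. AJUBA alone was higher (0.81; 5.26%, against 7.74% of all tested genes). Of 17 Wnt feedback and target genes 2 were lower (11.8%, against 9.93% of all tested genes), TNFRSF19 among them, and 0 higher. Of 15 neuroendocrine and secretory granule genes RELN and SYT1 were lower (13.3%) and SYP was higher (0.59; 6.67%, against 7.74% of all tested genes), so these counts were near those over all genes. RELN, reelin, had 24.1 and 21 CPM in WT, 8.05 and 9.3 CPM in AM and 74.9 and 72 CPM in 6WP libraries, lowest in AM and highest in 6WP (log2 fold change -1.38, SE 0.14, adjusted p = 0.00249; 6WP against AM log2 fold change 3.08, adjusted p = 0.000151).

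Interferon and antigen presentation genes were lower in part. Of 26 tested interferon-stimulated genes 10 were lower (38.5%) and 0 higher, against 9.93% and 7.74% of all tested genes, with a median of -0.73. PARP14 had 43 and 44.1 CPM in WT and 18.7 and 19 CPM in AM libraries (log2 fold change -1.21, SE 0.14, adjusted p = 0.00332), and MX1 (-1.60), IFIT5 (-1.26), DHX58 (-1.15), IFI35 (-1.0) and BST2 (-1.08) fell. Exons of MX1 overlap TMPRSS2 on the opposite strand, which also fell, and reads of the 2 genes may be mixed. ISG15, a ubiquitin-like protein, did not pass (log2 fold change 0.35, adjusted p = 0.182). Of 12 genes of MHC class I presentation 6 were lower (50.0%) and 1 higher (8.33%), the latter near the share over all genes. HLA-C had 29.7 and 35.7 CPM in WT and 11.4 and 11.6 CPM in AM libraries (log2 fold change -1.51, SE 0.29, adjusted p = 0.0146), and HLA-B (-1.44), HLA-E (-0.99), TAP2 (-0.58) and PSMB8 (-2.12) fell. B2M, the shared light chain, overlapped between the groups (log2 fold change 0.09, adjusted p = 0.682), and PSMB10 rose (0.65). HLA genes are near-identical copies, so reads may be split or lost between them.

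Butyrophilins, on the same arm of chromosome 6 as the HLA genes, were named by the largest falls and smallest p-values. BTN3A2 had 17.8 and 15 CPM in WT, 2.93 and 2.35 CPM in AM and 5.71 and 5.07 CPM in 6WP libraries (log2 fold change -2.64, SE 0.20, adjusted p = 0.00157), and BTN3A1 8.39 and 8.68 CPM in WT, 1.64 and 1.12 CPM in AM and 3.07 and 2.75 CPM in 6WP libraries (log2 fold change -2.65, SE 0.25, adjusted p = 0.0021). Both groups of week 6 were below WT, and AM was the lowest. BTN3A3 (-1.86), BTN2A2 (-1.15) and the pseudogene BTN2A3P (-1.71) fell too, while BTN2A1 did not pass (log2 fold change -0.22, adjusted p = 0.326). The BTN3A genes are close copies of each other.

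Immediate early genes, which respond within minutes to serum, growth factors and handling, were lower in 15 of 28 cases (53.6%) and higher in 0, with a median of -0.75. The WT libraries differed from each other here. FOS had 172 and 339 CPM in WT and 41.5 and 74.1 CPM in AM libraries, and EGR1 had 188 and 476 CPM in WT and 73.5 and 109 CPM in AM libraries. EGR3 had 5.36 and 21.2 CPM in WT and 0.861 and 2.27 CPM in AM libraries (log2 fold change -3.02, SE 0.65, adjusted p = 0.0196). WT replicate 2 was the highest library for each of these 3 genes, and the list summed to 1460 and 2360 CPM in WT against 874 and 1050 CPM in AM libraries. DUSP6 (-1.18), DUSP4 (-1.10), IER5 (-0.78) and ZFP36 (-0.99), feedback genes of this response, also fell, with values from 12.9 and 15 CPM in WT to 7.1 and 5.97 CPM in AM libraries for DUSP4. Without WT replicate 2 the list median was -0.52 and 0 members were called, and without WT replicate 1 it was -0.85 with 3 called. The part of the moment of harvest in these differences was not tested.

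Cytosolic ribosomal protein genes had small falls in many members. Of 74 members 21 were lower (28.4%) and 0 higher, 70 of 74 values were negative, and the median was -0.45. RPL5 had 1642 and 1661 CPM in WT and 918 and 1043 CPM in AM libraries (log2 fold change -0.75, adjusted p = 0.0276), and RPS3A 1983 and 1851 CPM in WT and 1152 and 1341 CPM in AM libraries (log2 fold change -0.62, adjusted p = 0.0217). RPL31 (-0.59), RPL7 (-0.58) and RPL37 (-0.58) fell as well. The AM libraries differed from each other, with list medians of -0.53 in AM replicate 1 and -0.32 in AM replicate 2. In 6WP against AM cells 50 of the 74 were higher and 0 lower, and against WT cells 0 were called. Ribosomal protein genes have many processed pseudogenes that can share their reads. Among snoRNA host genes, looked at after seeing values, GAS5 had 703 and 666 CPM in WT and 245 and 284 CPM in AM libraries (log2 fold change -1.37, SE 0.25, adjusted p = 0.012). SNHG5 (-0.88), SNHG7 (-0.70) and SNHG8 (-0.65) also fell, 4 of 16 in all, against 9.93% of all tested genes.

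HOX genes are a family chosen after the values were seen. Of 39 counted, 26 passed the filter, and of these 16 were called lower, 0 higher and 10 did not pass, with a median of -1.64 and all 26 values below 0. Over all tested genes 9.93% were lower. In the lowest of 5 equal bins of tested genes by expression, 16.5% were lower (median -0.43). HOXA10 had 6.65 and 6.15 CPM in WT and 1.29 and 1.12 CPM in AM libraries (log2 fold change -2.42, SE 0.34, adjusted p = 0.00603), and HOXB6 8.39 and 10.3 CPM in WT and 1.98 and 2.0 CPM in AM libraries (log2 fold change -2.23, SE 0.24, adjusted p = 0.00268). HOXC10 had 9.1 and 10.2 CPM in WT and 2.97 and 2.97 CPM in AM libraries (log2 fold change -1.69, SE 0.29, adjusted p = 0.0104), and HOXD8 had 10 and 15 counts in WT and 1 and 0 in AM libraries. In each of these genes both AM libraries lay below both WT libraries, and the exons of each overlap an antisense gene (HOXA10-AS, HOXB-AS3, HOXC-AS3 and HOXD-AS2), whose reads may be mixed in. The cluster medians were -1.74 for HOXA on chromosome 7 (5 of 8 called), -1.56 for HOXB on chromosome 17 (6 of 8), -1.58 for HOXC on chromosome 12 (4 of 7) and -1.56 for HOXD on chromosome 2 (1 of 3). HOXB13, the factor of prostate and hindgut and the best expressed member, had 538 and 613 CPM in WT and 437 and 531 CPM in AM libraries, which did not overlap but did not pass (log2 fold change -0.25, adjusted p = 0.275). The other members were below 11 CPM in both WT libraries. In 6WP against AM cells 17 of the 26 were higher and 0 lower, against 11.7% and 9.68% of all tested genes. The family was chosen after its AM values were seen, and this comparison uses them again, so its signs are not independent. In 6WP against WT cells 0 were called, where 1.63% of all tested genes were higher and 1.37% lower. SLITRK genes, transmembrane proteins of neurons also chosen after seeing values, were lower in 5 of 6 cases, SLITRK5 from 26.8 and 30.4 CPM to 8.18 and 9.54 CPM (log2 fold change -1.69, SE 0.16, adjusted p = 0.0021).

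Along the genome, windows of 20 neighbouring tested genes had a median of window medians of -0.001. Of 2661 overlapping windows 23 had a median below -0.5 and 2 above 0.5. The lowest lay on chromosome 7 around the HOXA cluster, with a median of -1.18 and 10 of 20 genes lower, and the window on chr12:53981509-55724705 around the HOXC cluster had 11 of 20 lower (median -1.001). One of the 2 high windows lay at chr17:81683326-82057470, with a median of 0.51 and 10 of 20 higher. By chromosome, medians lay between -0.13 (chromosome 13) and 0.17 (chromosome 18). On chromosome 18, 17.4% of the genes were higher and 8.46% lower, against 7.74% and 9.93% of all tested genes.

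The differences went with transcript length and with expression level. Tested genes were cut into 5 equal bins of each feature. In the bin of shortest transcripts the median was 0.20, with 14.5% higher and 5.4% lower, and in the longest bin it was -0.18, with 2.55% higher and 17.2% lower. By expression, the lowest bin had a median of -0.43 and the highest 0.16. Both AM libraries gave the same order (0.15 and 0.25 in the shortest bin, -0.14 and -0.21 in the longest), and the WT libraries differed from each other by at most 0.01 across the length bins. By GC content the medians lay between -0.05 and 0.12, and in the bin of highest GC the WT libraries also differed, by 0.17. With an offset for length, 13 matrix genes were lower in place of 17, 24 ER chaperones higher in place of 23, and 3 respiratory chain genes higher in place of 7. Ribosomal protein genes lower went from 21 to 30, and NRF2 targets from 6 higher and 1 lower to 3 higher and 2 lower, PRDX1 and TALDO1 losing their calls.

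**Figure D5:**
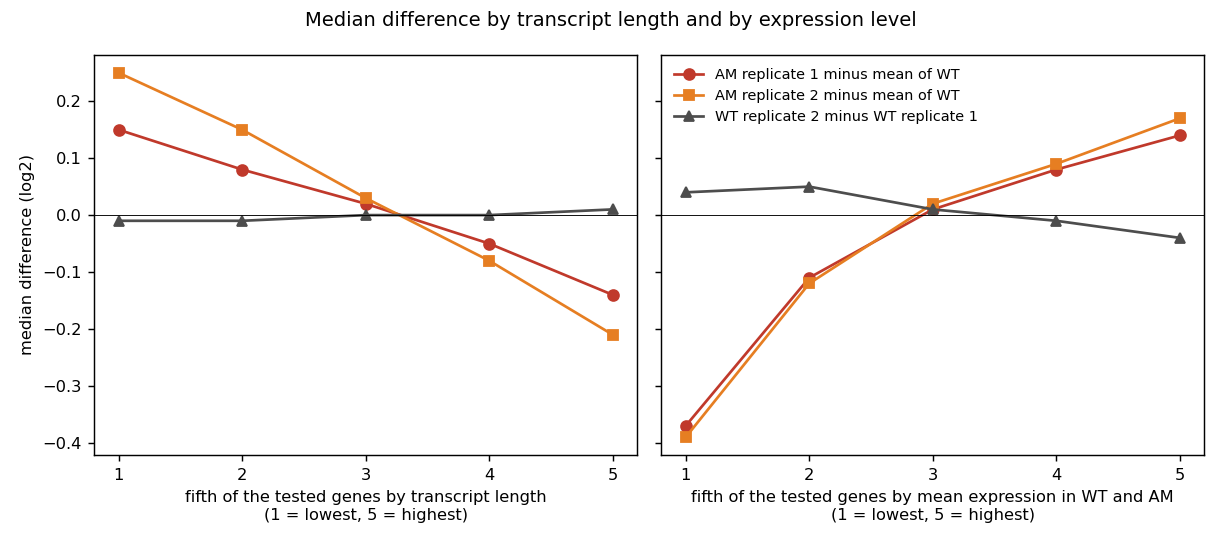
Median difference (log2) in 5 equal bins of the tested genes by canonical transcript length (left) and by mean expression (right), for each AM library against the mean of the WT libraries and for WT replicate 2 against WT replicate 1. The lines of both AM libraries fall with length, from 0.15 and 0.25 to -0.14 and -0.21, and climb with expression, and the line between the WT libraries stays near 0.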

How the data were processed

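RNA-seq of 6 samples of 22Rv1 cells was analysed, 2 each of WT, AM and 6WP. Per the labels, stranded TruSeq libraries were made from total RNA, and the processing notes name STAR 2.5.3a, hg38, featureCounts 1.5.3, StringTie 1.3.3 and edgeR 3.22.3 under R 3.5.0. The deposited file holds unnormalised read counts for each gene symbol in each library, as the authors made them, with no samples pooled. The annotation, strand setting and filters of that counting are not given in the sources used here, and 0 columns were left out.

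The tests were run here on those counts in edgeR 4.0.16 (R 4.3.3), with DESeq2 1.42.0 as an alternative. Low counts were removed with filterByExpr over the groups, libraries were scaled by TMM, and the quasi-likelihood test used a fit of the 3 groups with no other term, over the 6 libraries. Tests were two-sided, with Benjamini-Hochberg adjustment over all 14672 genes and a threshold of 0.05. CPM are TMM scaled, and the median of list members is set beside that of all genes. An exact permutation of 2 against 2 reaches 0.333 at best, so each call depends on the spread the fit shares across genes and groups. The labels do not say what separates the replicates, and p-values measure the spread between these libraries. The pipeline was tested on simulated counts.

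The samples, gene lists and rule for naming genes were chosen with earlier results of these data known. The rule named the 12 largest rises and falls and the 8 smallest p-values in each direction among called genes of a mean of at least 1 log2 CPM with non-overlapping groups, up to 4 called members of each list per direction, the luminal markers, the 6 of the leading genes with the smallest p in 6WP against AM, and OGDHL and ASNS (142 genes). Other genes were named after their values were seen, and some genes the rule selected are not reported here. Positions, lengths and exon overlaps come from GENCODE 44, which matched 23279 of 29804 symbols, and promoters from RefSeq.

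Alternatives were 2 other scalings and library size alone, 2 other filters, the DESeq2 Wald, edgeR exact and likelihood ratio tests, only the compared libraries, a replicate block, each library left out, thinning to the smallest total, loess offsets (span 0.5) for GC and length, and a fold threshold. A restriction to genes of at least 1 log2 CPM was added after seeing the data.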

Additional observations from a re-analysis of the deposited data

How the results depend on the processing

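Counts of called genes for AM against WT stayed within 1.5 times of 2593 under DESeq2 size factors, the 2 other filters, the DESeq2 Wald test, the exact and likelihood ratio tests, thinning and both offsets (2311 to 3587). Fitting only the 4 compared libraries gave 6635 genes for AM against WT (3425 higher, 3210 lower) and 1299 for 6WP against AM, and a threshold of 1 on the log2 fold change gave 958 (170 higher, 788 lower) and 1073. Upper quartile scaling gave 689 higher genes and library size alone 734, and with upper quartile scaling 68.2% of the calls of 6WP against AM were higher in 6WP, with library size alone 62.0% and with the DESeq2 Wald test 48.3%, against 1711 of 3131 with the TMM scaling of the report. Leaving out 1 library gave 46 to 123 genes for AM against WT (6 to 27 higher, 40 to 96 lower), and 115 to 6799 for 6WP against AM, lowest without AM replicate 2 and highest without 6WP replicate 1. Nearly all of the genes called with a library left out were among the 2593 (46 of 46 without WT replicate 2, 122 of 123 without AM replicate 1). With 1 library in a group, its spread is assumed to be that of the others.

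The labels give each group replicates 1 and 2, but same-numbered libraries did not deviate together (correlations over genes 0.0395 for WT and AM, 0.0873 for WT and 6WP, -0.0206 for AM and 6WP). Whether same-numbered libraries shared a culture or preparation is not in the labels, and with 2 libraries a group these correlations cannot show it. A replicate block gave 2485 genes (1024 higher, 1461 lower), of which 2307 were among the 2593, and 3069 for 6WP against AM, and moved no count of all genes by over 1.5 times.

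Of 135 called genes selected by the naming rule, 112 lost their call without WT replicate 2, 106 without WT replicate 1, 104 without AM replicate 2 and 99 without AM replicate 1, and at most 13 under any other setting. Signs changed for KRT18 (-0.03 under upper quartile scaling, -0.046 with the GC offset, -0.10 with the length offset, and -0.047 to 0.136 with 1 library left out) and OGDHL (-0.29 to 0.068 with 1 library left out). List medians kept their sign in every alternative for ER chaperones (0.65 to 0.75), metallothioneins (1.31 to 2.27), ATF4 targets (0.38 to 0.50), replication (0.55 to 0.73), matrix (-0.95 to -0.64) and ribosomal protein genes (-0.59 to -0.34), while with 1 library left out at most 3 ER chaperones were called. Depth limits statements on genes near 0.0850 to 0.141 CPM, the floor of 3 counts.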
